A study of Saccharomyces cerevisiae with 4 samples.

Results

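The plasma membrane amino acid permease genes of budding yeast (Saccharomyces cerevisiae) described here are BAP2, BAP3, TAT1, GNP1, TAT2, DIP5, HIP1, LYP1, CAN1 and GAP1. These 10 were chosen by name out of the 5500 reading frames in the value table, and with the ratios of these same arrays already known. Their own ratios are therefore given as a description and not as a test. Polyadenylated RNA of a strain named bre1 was hybridised together with that of wild type on 4 2-colour arrays, with bre1 RNA in Cy3 on arrays 1 and 3 and in Cy5 on arrays 2 and 4. BRE1 encodes the ubiquitin ligase that, with Rad6, modifies histone H2B. The labels give neither the kind of mutation, the strain background, the growth medium nor the amino acids supplied to either strain, and separate cultures behind the arrays are not stated. The p-values below therefore cover no more than array-to-array spread, which could be purely technical.

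Amino acid permeases carry amino acids into the cell together with protons, and most of these 10 belong to one transporter family with related sequences. Yeast sets their transcription by what is outside the cell. The plasma membrane sensor Ssy1, with Ptr3 and the protease Ssy5 (together the SPS sensor), responds to external amino acids by releasing the transcription factors Stp1 and Stp2 from their inhibitory ends, and these enter the nucleus and induce permease genes. BAP2, BAP3, TAT1 and GNP1 are classical targets of this route. DIP5 and TAT2 have been linked to the sensor as well, so the division between induced permeases and the others is not strict. GAP1, the general permease, is governed mainly by nitrogen catabolite repression, the shutdown of uptake genes controlled through GATA factors while a good nitrogen source is present.

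The values are log ratios, read as log2 of bre1 over wild type, so they give no level of any transcript. Each array held 4354 to 4759 values, and 3840 frames had a value on all 4 arrays, among them all 10 permeases. Over these 3840 genes, arrays of the same dye orientation correlated at 0.54 and 0.75 and arrays of opposite orientation at 0.20 to 0.65 (Pearson r across genes, which are not independent replicates), and no sign was turned. BRE1 had values on arrays 1 and 3 only, with log2 ratios of -1.65 and -3.17. Both carried bre1 RNA in Cy3, so BRE1 gave no direction for arrays 2 and 4. The reading as bre1 over wild type is likely and not settled. If every ratio ran the other way, each lower permease would be a higher one, and if the values had never been turned for dye, the difference between dye orientations rather than the mean would carry the bre1 signal. The median log2 ratio of the tested genes was -0.01, 0.09, -0.08 and 0.10 on arrays 1 to 4.

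On this reading 7 of the 10 permease transcripts were lower in bre1 on every array, by 1.65-fold to 1.96-fold on average, and 3 were not. The lower 7 were TAT1, BAP2, GNP1, DIP5, TAT2, LYP1 and HIP1, which between them carry branched-chain and aromatic amino acids, glutamine, acidic amino acids, lysine and histidine. The remaining 3 were BAP3, the arginine permease gene CAN1 and the general permease gene GAP1. Of all 3840 tested genes, 16.6% were lower on all 4 arrays.

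**Figure D1:**
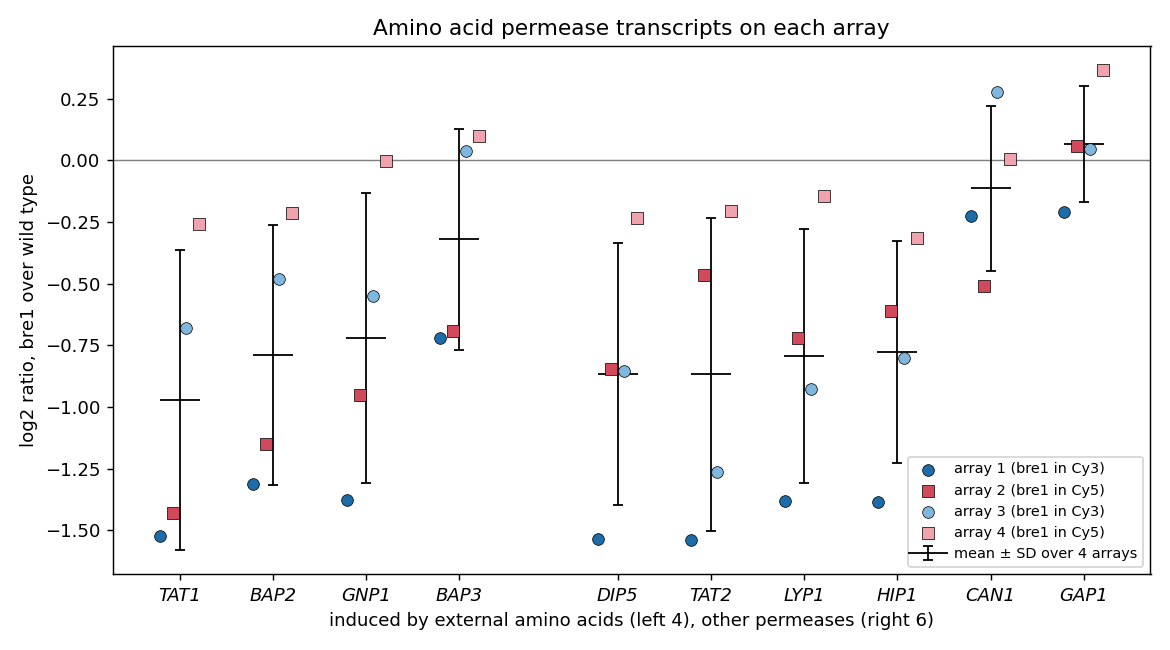
The log2 ratio of bre1 over wild type (vertical axis) is plotted for each of the 10 permeases (horizontal axis) on each of the 4 arrays, with circles where bre1 RNA carried Cy3 and squares where it carried Cy5; black bars are the mean ± SD over 4 arrays. In 7 genes every point lies below 0, and in BAP3, CAN1 and GAP1 the points lie on both sides of it.

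Among the permeases induced by external amino acids, TAT1 (YBR069C), a permease for valine, leucine, isoleucine, tyrosine and histidine, had the lowest mean. Its log2 ratios were -1.52, -1.43, -0.68 and -0.26 on arrays 1 to 4, a mean of -0.97 ± 0.61 (SD, n = 4) or 1.96-fold lower. All 4 arrays agreed in sign, and arrays 1 and 2 lay well below arrays 3 and 4. On this reading TAT1 ranked 69th from the lowest of the 3840 tested genes; in the difference between dye orientations, described below, it lay at percentile 59.5.

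BAP2 (YBR068C), the main permease for branched-chain amino acids, followed the same course. Its log2 ratios were -1.31, -1.15, -0.48 and -0.21, a mean of -0.79 ± 0.53 (SD, n = 4) or 1.73-fold lower. BAP2 and TAT1 lie next to each other in the genome and are transcribed from the same strand. GNP1 (YDR508C), a high-affinity glutamine permease, had log2 ratios of -1.38, -0.95, -0.55 and -0.0017, a mean of -0.72 ± 0.59 or 1.65-fold lower. Array 4 thus showed next to no difference for GNP1, while the other 3 arrays were clearly below 0.

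BAP3 (YDR046C), a second permease for branched-chain and other large neutral amino acids and a close relative of BAP2, stood apart from the other induced genes. Its log2 ratios were -0.72, -0.69, 0.04 and 0.10, a mean of -0.32 ± 0.45 (SD, n = 4), with a 95% interval from -0.76 to 0.12 in limma's fit. Arrays 1 and 2 showed a lower ratio and arrays 3 and 4 none. BAP2 and BAP3 are similar in sequence, and a probe may read both, so their separate values are uncertain; the probe sequences were not used here.

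Of the other 6 permeases, DIP5 and TAT2 had the lowest means, and both were 1.82-fold lower. DIP5 (YPL265W), which takes up glutamate and aspartate, had log2 ratios of -1.54, -0.85, -0.85 and -0.24, a mean of -0.87 ± 0.53 (SD, n = 4). TAT2 (YOL020W), the high-affinity permease for tryptophan and tyrosine, had log2 ratios of -1.54, -0.46, -1.26 and -0.20, a mean of -0.87 ± 0.63. For TAT2 the lower pair of arrays was 1 and 3, those with bre1 RNA in Cy3, and not 1 and 2 as for TAT1.

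LYP1 (YNL268W), the lysine permease gene, and HIP1 (YGR191W), the high-affinity histidine permease gene, were close to each other. LYP1 had log2 ratios of -1.38, -0.72, -0.93 and -0.14, a mean of -0.79 ± 0.51 (SD, n = 4) or 1.73-fold lower. HIP1 had log2 ratios of -1.38, -0.61, -0.80 and -0.31, a mean of -0.78 ± 0.45 or 1.71-fold lower. Both were furthest from 0 on array 1 and nearest to it on array 4.

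CAN1 (YEL063C), the arginine permease through which the toxic analogue canavanine enters, had log2 ratios of -0.22, -0.51, 0.28 and 0.01. Its mean was -0.11 ± 0.33 (SD, n = 4), with a 95% interval from -0.50 to 0.27, and its sign differed between arrays. CAN1 and LYP1, which both carry basic amino acids, thus gave different values on every array, and LYP1 was the lower on each.

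GAP1 (YKR039W), which carries nearly all amino acids and is made mainly when good nitrogen sources are lacking, was the only one of the 10 with a mean above 0. Its log2 ratios were -0.21, 0.06, 0.05 and 0.37, a mean of 0.07 ± 0.24 (SD, n = 4), with a 95% interval from -0.29 to 0.42. GAP1 was the highest of the 10 on arrays 1, 2 and 4, and on array 3 CAN1 was higher. These intervals leave room for changes of CAN1 and GAP1 in either direction.

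**Figure D2:**
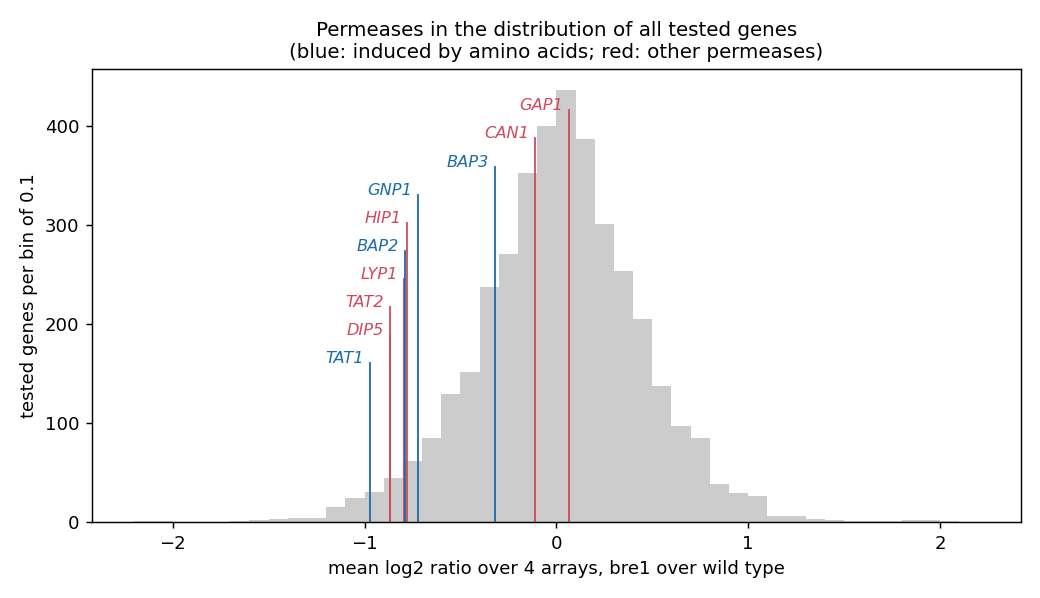
The grey histogram counts the 3840 tested genes by their mean log2 ratio over 4 arrays (horizontal axis, bins of 0.1), and vertical lines mark the 10 permeases, blue for those induced by external amino acids and red for the others; line heights serve only to part the names. The lines of 7 permeases stand in the lower tail, between -0.97 and -0.72, BAP3 stands at -0.32, and CAN1 and GAP1 stand near the centre.

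In order of their means the 10 ran TAT1, DIP5, TAT2, LYP1, BAP2, HIP1, GNP1, BAP3, CAN1 and GAP1. Neighbours in this order among the first 7 differed by 0.11 or less, and within arrays none of these 6 differences had the same sign on all 4. The widest gap was that between GNP1 and BAP3: GNP1 minus BAP3 was -0.66, -0.26, -0.59 and -0.10 on arrays 1 to 4, a mean of -0.40 ± 0.26 (SD, n = 4). GNP1 was thus the lower on every array. BAP3 minus CAN1 (-0.21 ± 0.24) and CAN1 minus GAP1 (-0.18 ± 0.35) were smaller than their spread. In the fit across all genes (limma, Benjamini-Hochberg adjusted p under 0.05), 6 of the 10 passed, all of them lower, beside 4.79% of all tested genes passing as lower and 10.7% passing in either direction. The 6 were TAT1, BAP2, DIP5, TAT2, LYP1 and HIP1. Since the 10 were chosen with these ratios known, nothing is read from this count. It also rested on the arrays used: none of the 10 passed without array 1, without array 2 or without array 3. Among all 3840 tested genes, 54 passed without array 1, 0 without array 2 and 187 without array 3. In each of these fits 7 of the 10 had an unadjusted p under 0.05 in limma. Of the 3840 tested genes, 720, 815 and 1037 did so without arrays 1, 2 and 3. Without array 4, 7 of the 10 passed, GNP1 being added, beside 677 of all tested genes. A mean below 0 was found for 9 of the 10, and for 47.4% of all tested genes.

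The comparison between the permeases induced by external amino acids and the others found similar typical ratios. The median of the means was -0.75 for the 4 induced genes and -0.79 for the other 6, a difference of 0.03 before rounding. By array, the induced median minus the other median was 0.04, -0.49, 0.31 and 0.07 on arrays 1 to 4, with a mean of -0.02 ± 0.34 (SD, n = 4). The sign changed between arrays and the difference was smaller than its spread. Each set held genes lower on every array and genes that were not. The latter were BAP3 (mean -0.32) among the induced, and CAN1 (-0.11) and GAP1 (0.07) among the others.

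The sets differed in degree in how their members varied from array to array, a pattern noticed only after the values were seen and therefore described without a test. All 4 induced permeases were lower on both arrays 1 and 2 than on both arrays 3 and 4. Of the other 6, CAN1 alone did so, beside 17.6% of all tested genes. DIP5 (-0.845 on array 2, -0.854 on array 3) and GAP1 (0.058 and 0.048) missed this order only narrowly, through these arrays. The mean of arrays 3 and 4 minus the mean of arrays 1 and 2 was 0.77 to 1.01 log2 units in the induced genes and 0.27 to 0.65 in the others, so the sets did not overlap. The median of this difference over all tested genes was 0.01, with the induced genes between its percentiles 96.1 and 99.0 and the other 6 between 74.9 (TAT2) and 93.2 (DIP5), so that both sets lay high. Ratios of all tested genes also spread more widely on arrays 1 and 2 (SD 0.67 and 0.57) than on arrays 3 and 4 (SD 0.49 and 0.48). The part of this wider spread in the percentiles was not tested.

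The dye orientation also ordered the arrays, mainly in the other set. Of the other 6, 5 (DIP5, TAT2, LYP1, HIP1 and GAP1) were lower on both arrays with bre1 RNA in Cy3 than on both arrays with bre1 RNA in Cy5, beside 35.9% of all tested genes, and none of the induced genes was. For DIP5 and GAP1 this order rested on arrays 2 and 3, which differed by about 0.01. The mean of arrays 2 and 4 minus the mean of arrays 1 and 3 was 0.05 to 0.49 in the induced genes and -0.28 to 1.07 in the others, and here the sets overlapped. Against all tested genes, TAT2 alone of the other 6 lay clearly higher by dye (percentile 96.8) than by array pair; DIP5, LYP1, HIP1, CAN1 and GAP1 lay as high or higher by array pair. TAT2 had the largest dye difference, with a mean of -1.40 on the Cy3 arrays and -0.33 on the Cy5 arrays. The median over all tested genes was 0.14. The labels do not say what arrays 1 and 2, or 3 and 4, have in common, and the part of dye or of any other array property in these values was not tested.

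**Figure D3:**
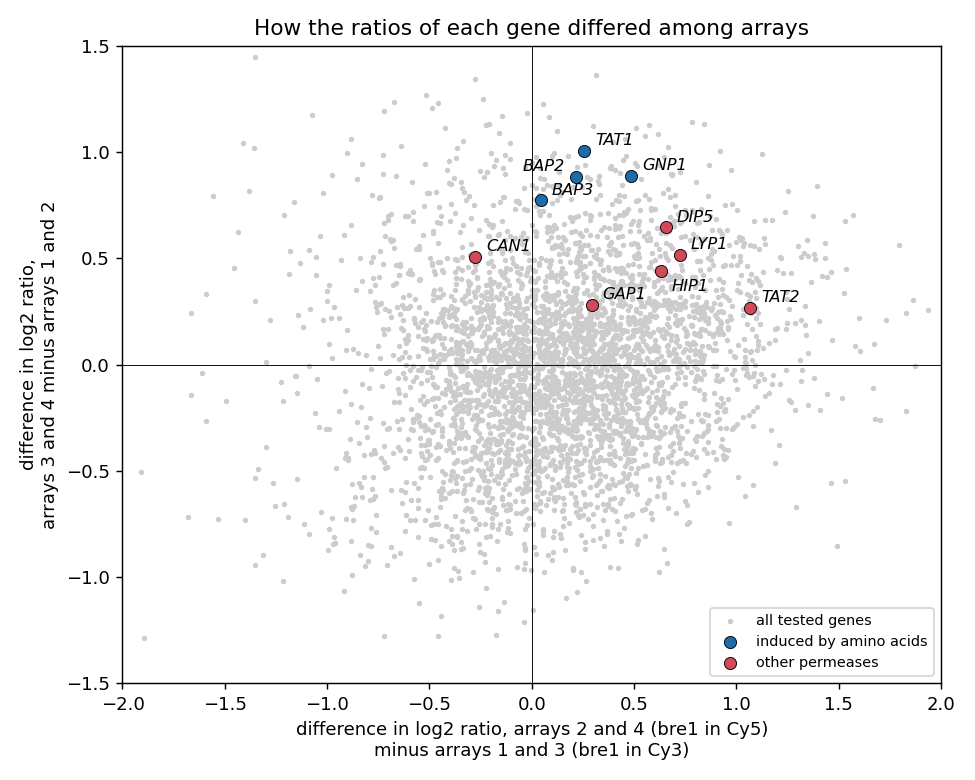
Each point is a gene, with the difference in log2 ratio between arrays with bre1 RNA in Cy5 and in Cy3 on the horizontal axis and that between arrays 3 and 4 and arrays 1 and 2 on the vertical axis; grey points are all tested genes (9 lie beyond the axes), blue the 4 induced permeases and red the other 6. The blue points lie between 0.77 and 1.01 on the vertical axis, above all red points, and the red points spread from -0.28 to 1.07 along the horizontal axis.

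The array also measured other amino acid and peptide permeases outside the 10. Of 11 listed, 7 had values on all 4 arrays. None of the 7 passed in limma's test over all genes (3 of 7 had an unadjusted p under 0.05, beside 30.2% of all tested genes), 6 of 7 means were below 0 (47.4% of all tested genes), and the median was -0.25, beside 0.02 over all tested genes. PTR2, the transporter of di- and tripeptides and another target of the SPS sensor, had log2 ratios of -1.08, -0.49, -0.58 and -0.31, a mean of -0.62 ± 0.33 (SD, n = 4, adjusted p = 0.052). All 4 arrays were below 0. AGP2, described as a carnitine and polyamine transport regulator, had a mean of -0.52 ± 0.38 (adjusted p = 0.094).

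AGP1, a broad-range permease and a further classical SPS target, had a mean near 0 with arrays on both sides. Its log2 ratios were -0.37, -0.49, 0.67 and 0.29, a mean of 0.03 ± 0.55 (SD, n = 4, limma adjusted p = 0.95). Like the 4 induced permeases, AGP1 was lower on both arrays 1 and 2 than on both arrays 3 and 4, with a difference of 0.91 between these pairs (percentile 98.1 of all tested genes). PTR2 differed by 0.34 between the same pairs. The order was not limited to induced permeases: 6 of 11 tested vacuolar transporter genes had it, with a difference of 1.01 for ATG22, and SHR3, needed for permease exit from the endoplasmic reticulum, had it with 0.90.

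Transcripts of the sensing route itself showed no call. Of 12 listed genes, 9 were tested, none passed in limma (2 of 9 had an unadjusted p under 0.05, beside 30.2% of all tested genes), and their median was 0.04, with 5 means above 0 and 4 below. SSY1, the sensor gene, had log2 ratios of -0.66, -0.20, -0.41 and -0.11, a mean of -0.35 ± 0.24 (SD, n = 4, adjusted p = 0.17). STP2, encoding one of the factors that induce the permeases, ran the other way, at 0.56, 0.79, 0.32 and 0.19, a mean of 0.46 ± 0.27 (limma adjusted p = 0.092). All arrays of SSY1 lay below 0 and all arrays of STP2 above it, though neither passed.

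The partner factor gene STP1 had no value on array 1 and gave 0.28, 0.35 and 0.36 on arrays 2 to 4. PTR3 had a mean of 0.04 ± 0.08 (SD, n = 4). SSY5, without a value on array 2, gave -0.49, -0.16 and 0.29 on arrays 1, 3 and 4. YCK1, a casein kinase gene of the route, had a mean of 0.44 ± 0.24 (SD, n = 4, limma adjusted p = 0.097).

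Nitrogen catabolite repression gave 2 calls in opposite directions among its targets. Of 16 listed targets, 9 were tested, 1 rose and 1 fell, beside 5.89% and 4.79% of all tested genes, with a median of -0.30. An unadjusted p under 0.05 was reached by 6 of the 9, beside 30.2% of all tested genes, among them CAR1, arginase (mean 0.76 ± 0.62, SD, n = 4, limma adjusted p = 0.062), and DAL5, the allantoate permease (-0.53 ± 0.21, adjusted p = 0.057), both chosen after their values were seen. MEP2, the high-affinity ammonium permease, fell 1.99-fold, with log2 ratios of -1.41, -0.84, -1.09 and -0.64, a mean of -0.99 ± 0.33 (SD, n = 4, limma adjusted p = 0.017). Its call was lost without array 1 (limma adjusted p = 0.065) and without array 2 (adjusted p = 0.077). Of all tested genes, 54 passed without array 1 and 0 without array 2. GLN1, glutamine synthetase, rose 2.42-fold, with log2 ratios of 0.81, 1.60, 0.93 and 1.77, a mean of 1.28 ± 0.48 (SD, n = 4, limma adjusted p = 0.013), and its call was lost without array 2 (adjusted p = 0.076). GAP1, a target of the same control and one of the 10 permeases, lay near 0, as given above.

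The regulators of this control did not pass. Of 5 listed, 3 were tested, with means of 0.41 ± 0.16 for the activator gene GLN3 (SD, n = 4, limma adjusted p = 0.11), 0.21 ± 0.16 for URE2, whose product holds Gln3 in the cytoplasm, and 0.08 ± 0.29 for the activator gene GAT1. All 3 means were above 0, while 47.4% of all tested genes had a mean below 0. Of the 3, 1 had an unadjusted p under 0.05 in limma, beside 30.2% of all tested genes.

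Permease proteins leave the endoplasmic reticulum with the help of Shr3 and are removed from the surface after ubiquitination by Rsp5 and its adaptors. Of 23 listed genes of this traffic, 15 were tested and none passed in limma (2 of 15 had an unadjusted p under 0.05, beside 30.2% of all tested genes), with a median of -0.04, 7 means above 0 and 8 below. SHR3 had log2 ratios of -0.48, -0.83, -0.06 and 0.56, a mean of -0.20 ± 0.60 (SD, n = 4, adjusted p = 0.58), with arrays on both sides of 0. GTR2 and EAR1 had the smallest p-values, with means of -0.39 ± 0.13 and -0.41 ± 0.20 (adjusted p = 0.11 for both).

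Vacuolar amino acid transporters, which move amino acids between cytosol and vacuole, had the lowest median of the 6 fixed lists. Of 14 listed, 11 were tested and none passed in limma (5 of 11 had an unadjusted p under 0.05, beside 30.2% of all tested genes), but 10 of 11 means were below 0 (47.4% over all tested genes) and the median was -0.45. ATG22, which exports amino acids released in the vacuole by autophagy, had a mean of -0.80 ± 0.61 (SD, n = 4, adjusted p = 0.056), and VBA1, a vacuolar transporter of basic amino acids, had -0.71 ± 0.55 (limma adjusted p = 0.063). By array the median over these 11 genes was -0.96, -0.22, -0.36 and 0.05, so it did not lie below 0 on array 4.

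**Figure D4:**
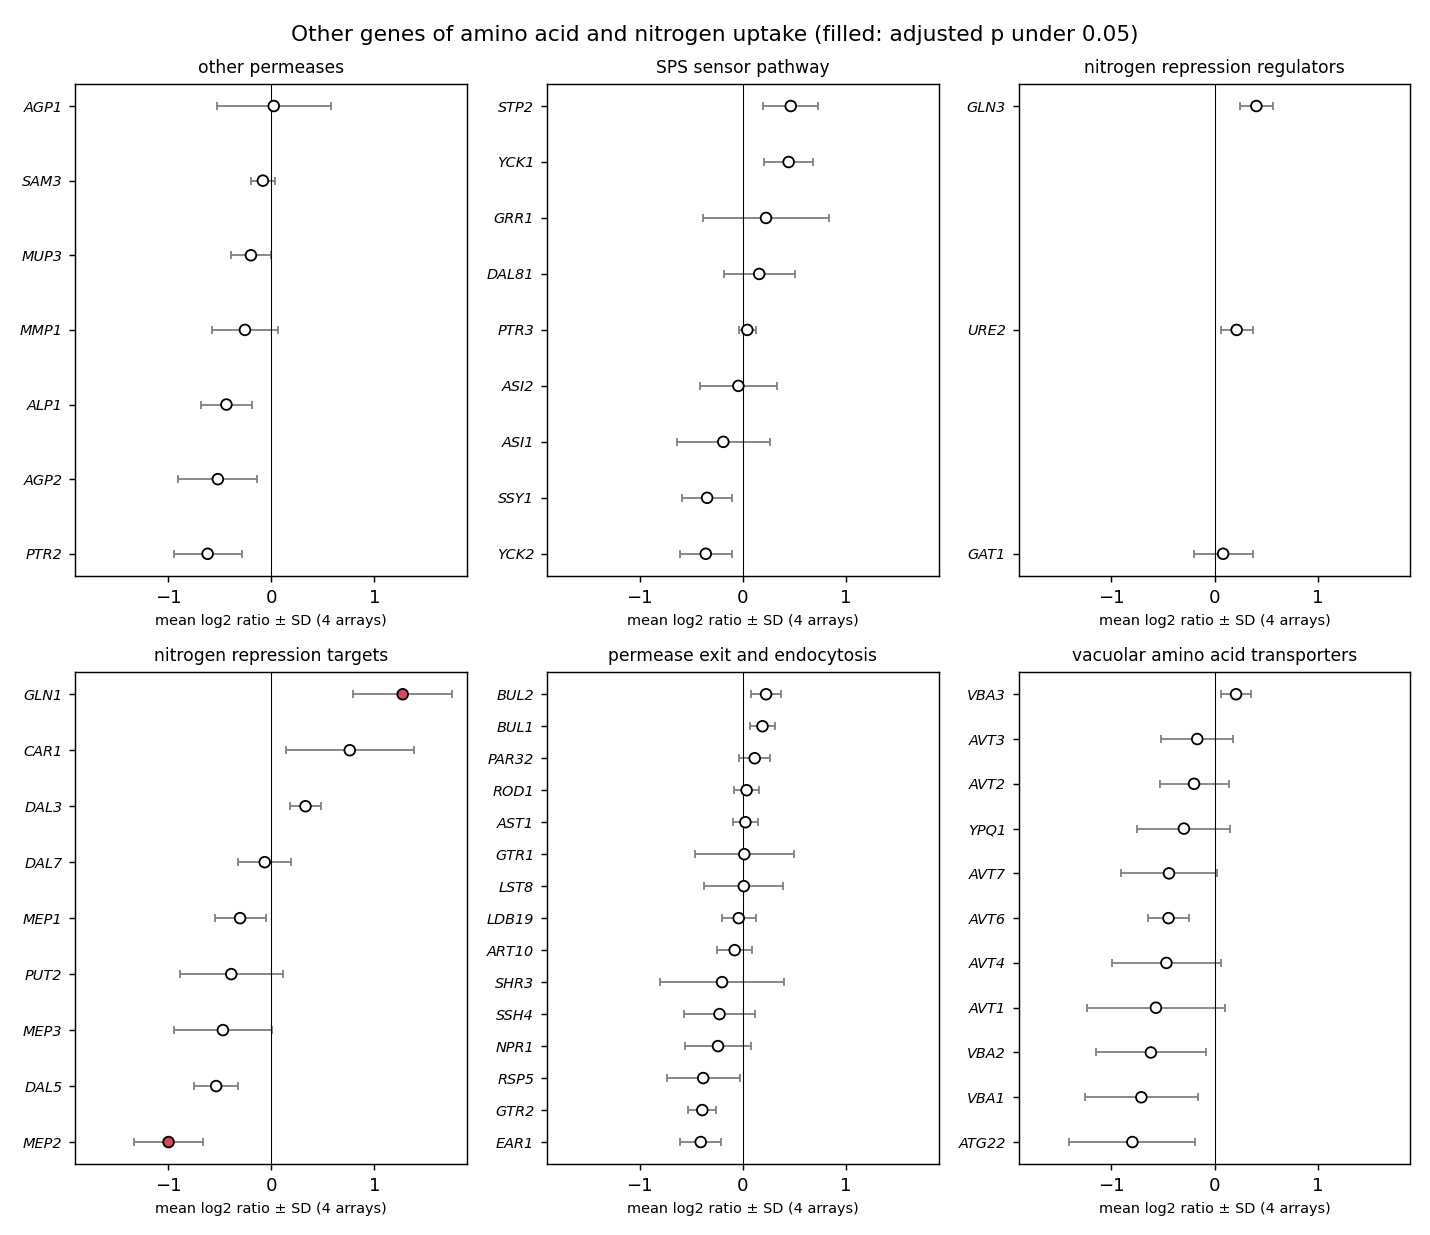
For the 6 fixed lists of related genes, each point is the mean log2 ratio of bre1 over wild type of a gene with values on all 4 arrays (horizontal axis) and each bar its SD over the arrays; filled points had a limma adjusted p under 0.05. Only GLN1 and MEP2 are filled, on opposite sides of 0, and 10 of the 11 vacuolar transporters lie left of 0.

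Genes next to the 6 permeases that passed were examined for change along the chromosome. TIP1, a cell wall mannoprotein gene on the far side of BAP2, fell 1.79-fold, with log2 ratios of -1.23, -1.29, -0.45 and -0.38, a mean of -0.84 ± 0.49 (SD, n = 4, limma adjusted p = 0.035). Of all tested genes, 4.79% passed as lower, and none passed without array 2, so the call of TIP1 was lost there. TIP1, BAP2 and TAT1 are 3 genes in a row, all lower on every array and all lower on arrays 1 and 2 than on arrays 3 and 4. BAP2 and TAT1 entered this search because they had passed as lower. Of all tested genes, 16.6% were lower on all 4 arrays and 17.6% had this order of arrays. ALG14, on the far side of TAT1, had a mean of 0.18 ± 0.33 (adjusted p = 0.52).

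At DIP5 the neighbours ran in opposite directions. DIM1, a ribosomal RNA methyltransferase gene, rose 1.85-fold (mean log2 ratio 0.89 ± 0.38, SD, n = 4, limma adjusted p = 0.023). Of all tested genes, 5.89% passed as higher, and the call of DIM1 was lost without array 2, where no gene passed. YPL264C had a mean of -0.58 ± 0.33 (limma adjusted p = 0.059). The remaining neighbours with 4 values did not pass: DIS3 beside TAT2 had a mean of -0.0035 ± 0.30, PIK1 beside LYP1 0.44 ± 0.19 and TDH3 beside HIP1 -0.33 ± 0.94. CRH1 beside HIP1 had a mean of -0.22 over 3 arrays, BSC4 beside LYP1 had 0.14 on array 3 alone, and YOL019W-A beside TAT2 had no value here.

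The 3 genes whose 4 ratios were nearest to those of TAT1 by Euclidean distance were YCL002C (distance 0.20), YIR044C (0.24) and HXT5, a hexose transporter gene (0.29). Their means were -1.01, -0.98 and -0.97. The nearest permease was BAP2, ranked 8th of all other tested genes at a distance of 0.41, followed by GNP1, ranked 33rd, and DIP5, ranked 41st. BAP3 ranked 429th. With 4 arrays that share their RNA types and dyes, such closeness is a description of these values only.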

How the data were processed

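Each array contributed the log ratio that the authors deposited for a reading frame, taken here as log2 of bre1 over wild type; per the labels, dyes were exchanged between arrays. For the log base, direction, background correction, spot filter and normalization, the sources used here give nothing. Base 2 was taken because the values lie between -4.80 and 2.82, a range too wide to be plausible on a log10 scale. Signs were kept because arrays of opposite dye correlated above 0. This rule cannot settle the direction, because dye effects of genes in ratios never turned for dye could also give correlations above 0. Names came from a gene table of assembly R64, which matched 5470 of 5500 frames; no coordinates are printed because the values name no build. Scanner intensities were not analysed, so dim spots could not be filtered, and precision is limited by having 4 arrays.

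Genes with values on all 4 arrays (3840) were tested with limma 3.58.1 under R 4.3.3: an intercept on 4 ratios, eBayes, a two-sided test against 0 and Benjamini-Hochberg adjustment over all tested genes, with a threshold of 0.05. Intervals of 95% come from this fit and errors are SDs over arrays. The fit was tested on simulated data, where it recovered 28.4% of changes of 0.5 log2 units, 94.0% of 1.0 and 100.0% of 2.0. Of the simulated calls, 5.73% were false. The simulated noise was independent between arrays, so effects shared by arrays of the same dye or pair were not covered.

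The permeases and lists were chosen with earlier results of these data known. Named are all 10 permeases, core genes of the sensing route, AGP1, PTR2 and SHR3, list members past the threshold or else the pair with the smallest p, the 3 genes nearest to the permease with the largest mean change, and neighbours of permeases past the threshold. Members of a list are described by counts and medians, with no list test. A planned count of promoter motifs was not run, since promoter sequences were not used here. Alternatives left out each array, added a dye term, centred or scaled the arrays, weighted them, used a robust variance prior, asked for 3 arrays, averaged arrays 1 with 2 and 3 with 4, or removed a trend on gene length.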

Additional observations from a re-analysis of the deposited data

Results flagged for a closer look

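Dixon's 95% criterion for a value far from the others, given the range, was applied to the 4 arrays of 66 genes and sets, and chance alone marks about 1 in 20. It marked none of the 10 permeases and 2 other genes. AST1, whose product acts in sorting to the plasma membrane, was at 0.20 on array 2 and between -0.04 and -0.03 on the other 3. GTR2, a GTPase gene of amino acid signalling and permease sorting, was at -0.59 on array 2 and between -0.34 and -0.30 on the others.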

How the results depend on the processing

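The 7 lower permeases kept a mean below 0 under all 12 alternatives, BAP3 did too without ever passing, and CAN1 and GAP1 changed sign: with 1 array left out CAN1 ranged from -0.24 to 0.019 (without array 2) and GAP1 from -0.034 (without array 4) to 0.16. The permeases past the threshold numbered 6, and 0 to 7 when 1 array was left out; TAT2 missed it when 3 arrays sufficed, leaving 5, and GNP1 was added with a dye term, array weights or array pairs averaged, giving 7. The induced median minus the other median ranged from -0.09 to 0.17, within its SD over arrays of 0.34. Genes past the threshold numbered 410, 0 to 677 when 1 array was left out (0 without array 2, where 815 had an unadjusted p under 0.05 in limma), 897 with a dye term, 685 with array weights and 679 with array pairs averaged, a fit with 2 values per gene. With the trend on gene length removed, 196 were higher and 289 lower, against 226 and 184. List genes past the threshold numbered 2, 0 to 8 when 1 array was left out, and 11 with a dye term. They numbered 4 with arrays scaled to one spread, 7 with array weights, 8 with array pairs averaged and 5 with the length trend removed. The lists held 7, 9, 3, 9, 15 and 11 tested genes. Over all tested genes, 454 passed with arrays scaled to one spread and 485 with the length trend removed. The cause of these shifts was not tested. PTR2 passed under 7 of the 12 alternatives, ATG22 under 5 and VBA1 under 4, and these genes were picked with their values known. Each ratio already pairs bre1 with wild type on its array. No paired analysis was possible because the array numbers, beyond that, mark no shared sample of different groups.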
